A study of Mus musculus with 6 samples.

Results

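The BCL2 family decides whether a cell's mitochondria stay intact or release the proteins that start apoptosis. Pro-survival members (Bcl2, Mcl1, Bcl2l1, Bcl2a1b) hold the pore-forming effectors (Bak1) in check, and BH3-only members (Bcl2l11, Bid, Bad, Pmaip1) bind the pro-survival proteins or act on the effectors themselves. Haematopoietic stem and progenitor cells depend on Mcl1 in particular, and signalling from mutant FLT3 is known to act on several members through STAT5, AKT and ERK. The genes were chosen by name, as 10 family members, and 9 of them had a row among the 22475 genes of the deposited table. Bcl2a1d was not analysed here. All 9 passed the filter on low counts that left 13217 genes, and the lowest count of any of them in any library was 23.

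The RNA came from bone marrow cells of mice sorted as Lin-, Sca1+ and cKit+, a population rich in stem and progenitor cells. Every mouse carried the FLT3-ITD mutation, an internal tandem duplication in a receptor tyrosine kinase, on both alleles. The control group had wild type miR-155, and the other group (KO) had a homozygous deletion of this microRNA. There were 3 libraries per group, each made from the combined RNA of 3 mice, so p-values measure the spread between pools. Ages were not given. The question was whether loss of miR-155 goes with other RNA levels of survival and death genes in FLT3-ITD progenitors.

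Control libraries totalled from 8136914 to 9443615 counts and KO libraries from 6843129 to 7601317, so the KO libraries were all the shallower ones. The gate genes were present, with Kit between 242 and 387 CPM (counts at a depth shared by all libraries) and Ly6a, which encodes Sca1, between 105 and 128. Kit was lowest in replicate 1 of each group, at 242 CPM in control and 243 CPM in KO, against 305 to 387 CPM elsewhere. Marker RNA of other cell types was present too. The summed level of 10 macrophage genes was 761 CPM in control replicate 1 and 525 CPM in KO replicate 1, against 63.97 to 153 CPM in the other libraries, and Vsig4 of that list was at 0 in all but KO replicate 3. Control replicate 1 and KO replicate 1 also had the highest summed level of 8 erythroid genes. It was 75.3 and 51.95 CPM there, against 9.74 to 21.1 CPM in the other libraries. The summed level of 7 dendritic cell genes was 985 CPM in KO replicate 1, 572 CPM in control replicate 1 and 389 to 463 CPM elsewhere. The summed levels of 4 other lists did not overlap between the groups and were lower in KO libraries. Plasma cell genes (9 measured) summed to between 8429 and 12167 CPM in control libraries and between 1482 and 4117 CPM in KO libraries. The ranges were 616 to 763 and 342 to 533 CPM for neutrophil genes, 87.5 to 112 and 42.4 to 62.98 CPM for mast cell, basophil and eosinophil genes, and 111 to 129 and 97.8 to 102 CPM for T and NK cell genes. In the last 2 lists the groups did not overlap for Prg2, Il1rl1, Cd28 and Cd2, and overlapped for every other gene. Prg2 had 51.9 to 75.0 CPM in control and 13.2 to 25.8 CPM in KO libraries. For Cd28 the ranges were 15.4 to 23.4 and 6.92 to 12.3 CPM, while Cd8a had a positive log2 fold change (0.69). These 2 sums therefore rest largely on few genes. The part of the marker genes' cell types in the members' values was not tested.

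miR-155-5p acts by pairing its seed, bases 2 to 8, with sites in 3' UTRs, so the members' longest annotated 3' UTRs were searched on the transcript strand. The letters sought were AGCATTAA (8mer), AGCATTA (7mer-m8) and GCATTAA (7mer-A1), with a 7mer inside an 8mer counted once. The mature sequence (chromosome 16, 84714143 to 84714165, plus strand, RefSeq on GRCm38.p6) has its seed in capitals, and the match in Bid, in its 3' UTR (chromosome 6, 120893912 to 120893918, minus strand, GRCm38), is in capitals with the bases around it.
miR-155-5p: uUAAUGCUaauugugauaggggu
Bid: ctaaggagaacAGCATTAggagaggtgcat

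Of the 10 members, Pmaip1 and Bid held a match, and the other 8 held none. Pmaip1 had 2 matches of the 8mer type, starting at bases 513 and 1996 of a 3' UTR of 2192 bases. Bid had 1 match of the 7mer-m8 type, starting at base 363 of 1427. Over the 11723 tested genes with a 3' UTR, 13.9% had a match of any of the 3 types, 3.37% had an 8mer and 14 genes (0.119%) had 2 or more 8mers. The 3' UTRs without a match included the long ones of Bcl2 (5086 bases), Bcl2l11 (4218) and Mcl1 (2353). A match is a description of the letters and does not show that the microRNA binds there.

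Levels were compared between genes on the deposited FPKM scale, which divides by gene length and library size. Mcl1, a short-lived pro-survival protein, was the most abundant member in every library. Control replicates 1, 2 and 3 had 223, 242 and 228 FPKM, and KO replicates 1, 2 and 3 had 335, 314 and 239. No other member overlapped it, since Pmaip1, next in order, lay between 30.5 and 85.5 FPKM over the 6 libraries with a median of 36.9. Pmaip1, Bak1 (31.8 to 38.4), Bcl2 (21.5 to 32.5) and Bid (20.05 to 27.5) formed a middle tier in which each overlapped the next. Bad (8.30 to 9.86), Bcl2a1b (3.46 to 17.3), Bcl2l11 (7.32 to 10.2) and Bcl2l1 (5.10 to 7.80) formed a low tier, again with each overlapping the next, and Bad did not overlap Bid above it.

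**Figure D1:**
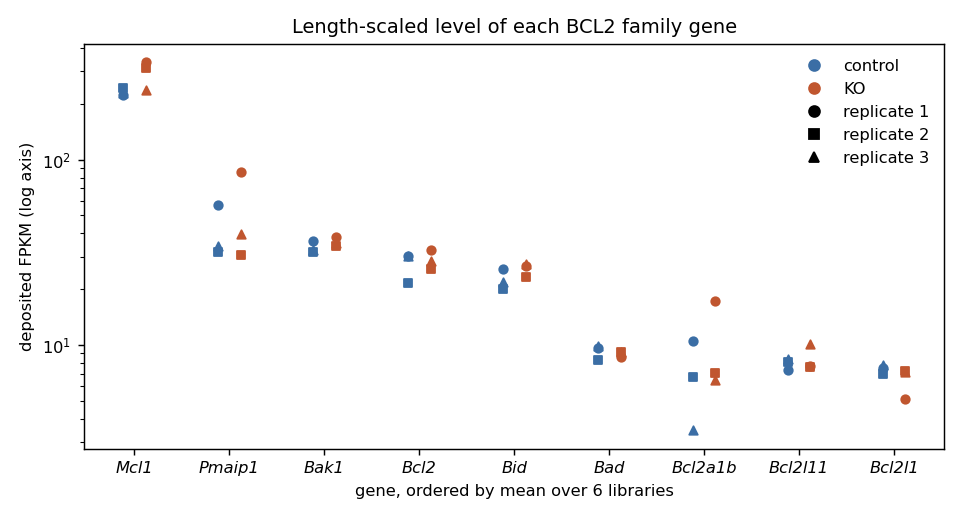
Deposited FPKM on a log axis for the 9 members, ordered by the mean over 6 libraries, with control libraries in blue and KO libraries in orange and a marker shape per replicate number. Mcl1 lies between 223 and 335 FPKM in every library, and the lowest tier, from Bad to Bcl2l1, lies between 3.46 and 17.3.

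Mcl1 took 54.8% to 64.2% of the summed FPKM of the 9 members in the control libraries and 59.3% to 68.5% in the KO libraries. Control replicates 1, 2 and 3 had a summed FPKM of the 4 pro-survival members 2.00, 2.77 and 2.52 times that of the 5 pro-death members. In the KO replicates it was 2.33, 3.38 and 2.31 times. These sums hold the chosen members only, so the ratio is not that of the whole family. Relatives outside them include the effector Bax (27.5 to 40.0 FPKM) and the pro-survival gene Bcl2l2 (5.4 to 7.0 FPKM). On the log2 scale the ratio averaged 1.27 ± 0.24 (SD, n = 3) in the control group and 1.40 ± 0.31 (SD, n = 3) in the KO group, a difference smaller than the spread between replicates.

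No member passed the test between the groups. Of the 13217 genes tested with edgeR, 0.159% had an adjusted p under 0.05, and 0 of the 9 members did. With the replicate number as a block, 1.36% of all genes and again 0 members passed. The labels state no pairing, so this block rests on correlations between the libraries in the same data. DESeq2, with its own filter, called 0.845% of the 15498 genes that it gave an adjusted p. For limma-voom the share was 0.129% of the 13217, and each called 0 members. An unadjusted p under 0.05 was found for 1 member, Mcl1, and for 3.9% of all genes. With the block it was found for 3 members, Mcl1, Bid and Bcl2a1b, and for 9.37% of all genes. The members' median log2 fold change, KO over control, was 0.10, beside 0.00096 over all genes tested, with 7 positive and 2 negative values. The groups did not overlap in 8.22% of all genes and overlapped for every member. The KO library was the higher in all 3 pairs of equal number for 4 of the 9 members, against 15.1% of all genes, and the lower in all 3 for 0, against 16.5%. In bulk RNA a different number of cells of a type and a different amount of RNA per cell cannot be told apart.

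**Figure D2:**
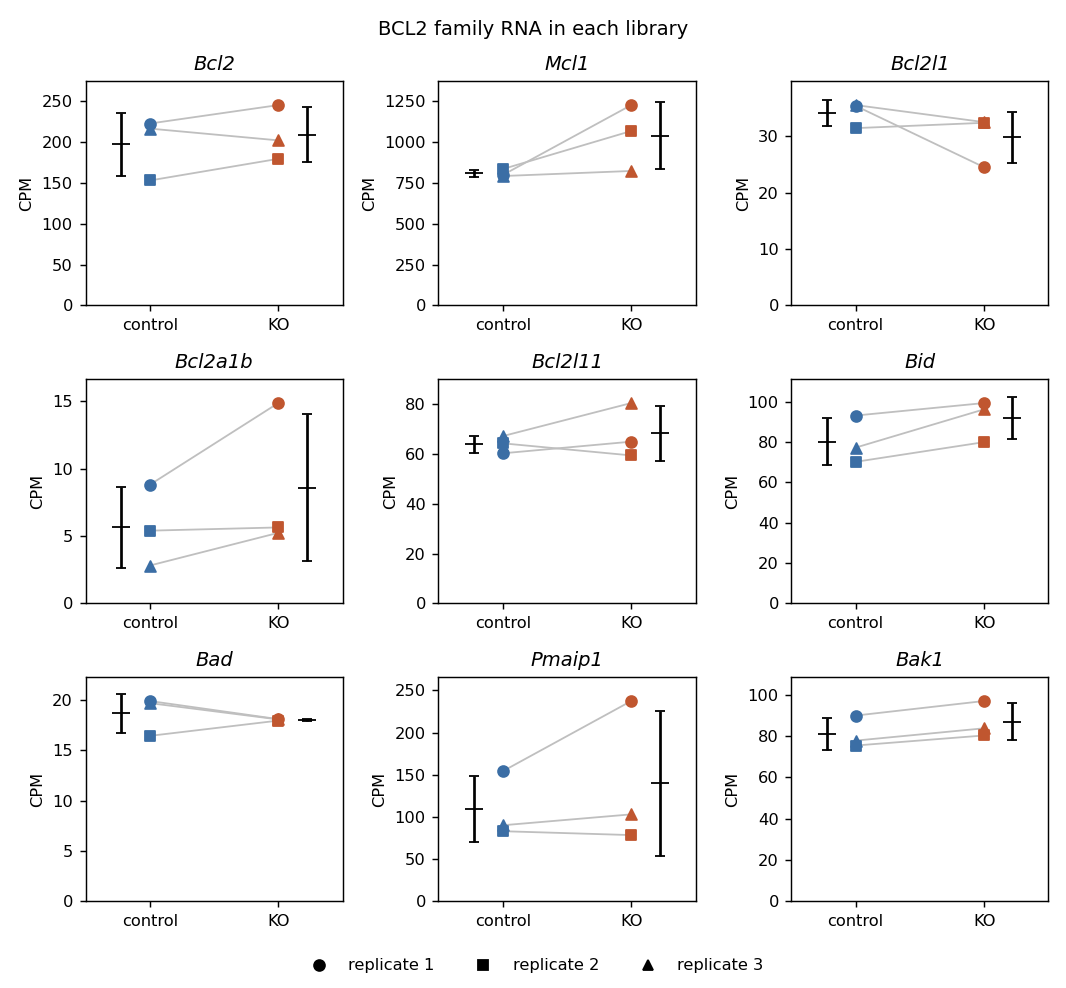
CPM of each member in the 3 control (blue) and 3 KO (orange) libraries, with a marker shape per replicate number, grey lines between equal numbers and black bars for the group mean ± SD (n = 3); every axis starts at 0. The circles, replicate 1 of each group, are the highest points for Pmaip1 (154 and 237 CPM) and Bcl2a1b (8.80 and 14.9 CPM).

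Among the pro-survival members, Mcl1 (ENSMUSG00000038612, chromosome 3, 95658788 to 95663176, GRCm38) had the smallest p. Control replicates 1, 2 and 3 had 796, 833 and 790 CPM, and KO replicates 1, 2 and 3 had 1224, 1065 and 821 CPM. The control libraries lay close together, KO replicates 1 and 2 lay above all of them, and KO replicate 3 lay just below control replicate 2. The means were 806 ± 22.97 and 1037 ± 203 CPM (SD, n = 3), so the KO libraries were also the more spread. The log2 fold change was 0.36 ± 0.15 (SE), with a 95% interval of 0.020 to 0.70 and an adjusted p of 0.9995 in edgeR (unadjusted p = 0.0406, rank 438 of 13217). With the block it was 0.34 ± 0.12 (SE; adjusted p = 0.399 in edgeR). The pairs of numbers 1, 2 and 3 differed by 0.62, 0.36 and 0.055 on the log2 scale.

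Bcl2, the founding pro-survival gene and the target of venetoclax (ENSMUSG00000057329, chromosome 1, 106538178 to 106714274), had 222, 153 and 216 CPM in the control replicates. The KO replicates had 245, 179 and 202 CPM. In both groups replicate 2 was the lowest and replicate 1 the highest, and the groups overlapped over most of their range. The log2 fold change was 0.082 ± 0.17 (SE), with a 95% interval of 0.80- to 1.40-fold and an adjusted p of 0.9995 in edgeR.

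Bcl2l1, which encodes BCL-XL, a survival factor of erythroid and megakaryocytic cells (ENSMUSG00000007659, chromosome 2, 152780668 to 152831728), was the member with the most negative fold change. It had 35.4, 31.5 and 35.6 CPM in the control replicates and 24.5, 32.4 and 32.5 CPM in the KO replicates. KO replicate 1 stood below the other 5 libraries. Between the groups the log2 fold change was -0.19 ± 0.14 (SE; adjusted p = 0.9995 in edgeR), and -0.068 without KO replicate 1. That library also had the lowest summed level of 5 megakaryocyte genes (9.96 CPM, against 24.1 to 36.1 CPM elsewhere). Its 8 erythroid genes summed to 51.95 CPM, beside 75.3 CPM in control replicate 1 and 9.74 to 21.1 CPM in the others. Their part in the result was not tested.

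Bcl2a1b, a pro-survival gene induced by NF-kB in myeloid and lymphoid cells, lies at chromosome 9, 89199209 to 89207827 (ENSMUSG00000089929). It is a member of a cluster of near-identical copies. Its transcript and that of Bcl2a1d differ at 7 of 817 aligned bases, and 57.6% of the 50-base windows of the Bcl2a1b transcript also occur in that of Bcl2a1d. The first 30 coding bases of both, from GENCODE M21, hold 1 difference, in capitals, and show how little separates reads of the copies.
Bcl2a1b: atgGctgagtacgagttcatgtatatccac
Bcl2a1d: atgTctgagtacgagttcatgtatatccac

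How reads common to the copies were counted is not given, so the level of Bcl2a1b is uncertain. Control replicates 1, 2 and 3 had 81, 47 and 23 counts and KO replicates 97, 44 and 38, and a count of 23 has a 95% Poisson interval of 14.6 to 34.5 for counting error alone. As CPM the control libraries had 8.80, 5.40 and 2.81 and the KO libraries 14.9, 5.64 and 5.24. Replicate 1 was the highest library of each group. For Bcl2a1b edgeR gave a log2 fold change of 0.58 ± 0.53 (SE) with adjusted p = 0.9995, the least certain of the members, and with the block 0.57 ± 0.22 (SE; adjusted p = 0.489). Without KO replicate 1 it was -0.061. Replicate 1 of each group also had the highest macrophage, erythroid and dendritic cell gene levels and the lowest Kit given above. Like Bcl2a1b, the dendritic cell sum was higher in KO replicate 1 (985 CPM) than in control replicate 1 (572 CPM). The macrophage and erythroid sums were higher in control replicate 1. The part of these cell types in the level of Bcl2a1b was not tested.

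**Figure D3:**
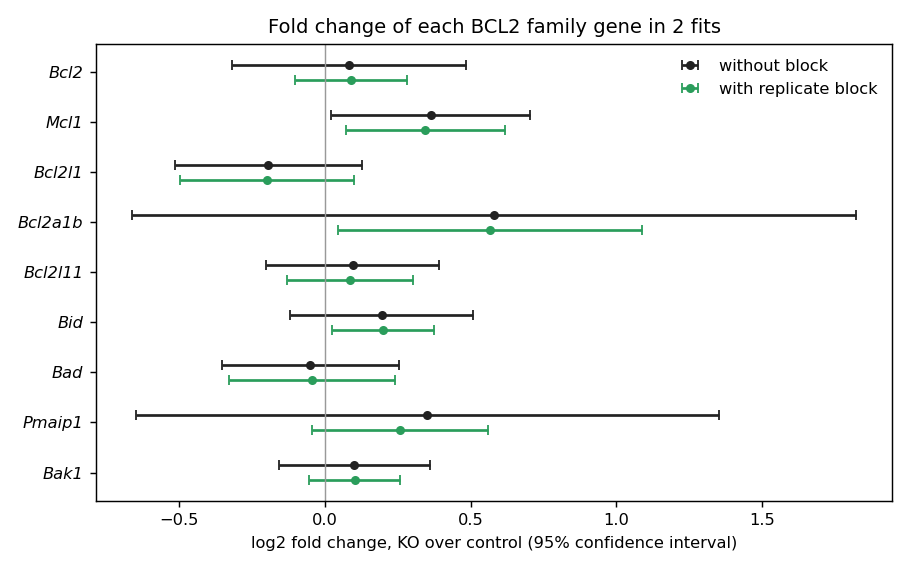
Log2 fold change of the 9 members, KO over control, with 95% confidence intervals from edgeR without a block (black) and with the replicate number as a block (green). Without the block the interval of Mcl1 (0.020 to 0.70) alone leaves out 0, before adjustment, and those of Bcl2a1b and Pmaip1 are the widest.

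Among the BH3-only genes, Pmaip1, which encodes NOXA, the inhibitor of MCL1 that p53 and the stress response induce (ENSMUSG00000024521, chromosome 18, 66458533 to 66465565), varied most between pools. It had 154, 83.1 and 90.2 CPM in the control replicates and 237, 78.5 and 103 CPM in the KO replicates. Replicate 1 was above the other 2 of its group in both groups, and the groups overlapped. The SD within groups was 0.68 on the log2 scale, larger than that of 99.5% of the genes of like level (within 0.5 in mean log2 CPM), whose median SD was 0.12. Its log2 fold change was 0.35 ± 0.43 (SE). This had an interval of 0.64- to 2.55-fold and an adjusted p of 0.9995 in edgeR. With the block it was 0.26 ± 0.13 (SE; adjusted p = 0.594). It was -0.26 without KO replicate 1, 0.69 without control replicate 1 and 0.069 without both libraries of number 1. The high libraries were those with the high macrophage, erythroid and dendritic cell gene levels and the lowest Kit. Dendritic cell genes summed to 985 CPM in KO replicate 1, 572 CPM in control replicate 1 and 389 to 463 CPM elsewhere. Like Pmaip1, that sum was higher in KO replicate 1 than in control replicate 1. The macrophage and erythroid sums were higher in control replicate 1. The part of these cell types in the level of Pmaip1 was not tested.

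The ratio of Mcl1 counts to those of its partner Pmaip1 was lowest in replicate 1 of each group. Control replicates 1, 2 and 3 had ratios of 5.16, 10.02 and 8.76, and KO replicates 1, 2 and 3 had 5.15, 13.6 and 7.97. On the log2 scale the group means were 2.94 ± 0.51 and 3.04 ± 0.70 (SD, n = 3).

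Bid, which caspase-8 cleaves to link death receptors to mitochondria (ENSMUSG00000004446, chromosome 6, 120891930 to 120916853), had 93.1, 70.2 and 77.2 CPM in the control replicates. The KO replicates had 99.3, 79.9 and 96.2 CPM. Each KO library was above the control library of its number, by 0.092, 0.19 and 0.32 on the log2 scale, while the groups overlapped. For Bid edgeR gave a log2 fold change of 0.19 ± 0.13 (SE) with adjusted p = 0.9995, and 0.20 ± 0.074 with the block (SE), adjusted p = 0.470.

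Bcl2l11, which encodes BIM, a killer of cytokine-deprived blood cells (ENSMUSG00000027381, chromosome 2, 128126038 to 128162547), had 60.3, 64.3 and 67.2 CPM in the control replicates. The KO replicates had 64.98, 59.4 and 80.5 CPM. KO replicate 3 was the highest and KO replicate 2 the lowest of the 6, so the KO group enclosed the control group. In edgeR the groups differed by 0.095 ± 0.13 on the log2 scale (SE), adjusted p = 0.9995, with an interval of 0.87- to 1.31-fold. The ratio of Bcl2 to Bcl2l11 counts averaged 1.60 ± 0.32 in the control and 1.61 ± 0.29 in the KO group (log2, SD, n = 3).

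Bad, a BH3-only protein held inactive by AKT phosphorylation (ENSMUSG00000024959, chromosome 19, 6941861 to 6951899), was the steadiest BH3-only gene. It had 19.9, 16.4 and 19.7 CPM in the control replicates and 18.1, 17.9 and 18.1 CPM in the KO replicates. The KO values fell between those of control replicate 2 and the other controls. The log2 fold change was -0.050 ± 0.13 (SE; adjusted p = 0.9995 in edgeR), with an interval of 0.78- to 1.19-fold.

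Bak1, the pore-forming effector among the members (ENSMUSG00000057789, chromosome 17, 27019810 to 27029009), had 89.96, 75.5 and 77.8 CPM in the control replicates. The KO replicates had 97.0, 80.3 and 83.8 CPM. Each KO library was above the control library of its number, by 0.11, 0.090 and 0.11 on the log2 scale, and replicate 1 was the highest of both groups. Bak1 had a log2 fold change of 0.10 ± 0.11 (SE), with an interval of 0.90- to 1.28-fold and an adjusted p of 0.9995 in edgeR. Exons of Bcl2l13 cover 17.7% of the exon bases of Bid on the other strand, those of Gpr137 20.5% of Bad and those of Ggnbp1 up to 18.2% of Bak1. The antisense gene D630008O14Rik covers 6.09% of the exon bases of Bcl2. Counts in these stretches are uncertain because the use of strand was not given. Gm29094 covers 49.1% of Bcl2a1b on the same strand, where strand would not separate the reads.

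KO replicate 1 was the highest of the 6 libraries for 6 of the 9 members (Bcl2, Mcl1, Bcl2a1b, Bid, Pmaip1 and Bak1) and the lowest for Bcl2l1. Over all genes tested it was the highest for 25.9% and the lowest for 24.2%, more than any other library on either side. Without both libraries of number 1, an alternative chosen after seeing the data, 0 members passed, and the log2 fold changes were 0.40 for Bcl2a1b, 0.26 for Bid, 0.22 for Mcl1, 0.10 for Bak1, 0.090 for Bcl2l11, 0.069 for Pmaip1, 0.048 for Bcl2, -0.0014 for Bad and -0.043 for Bcl2l1. In those 4 remaining libraries the summed macrophage genes lay between 63.97 and 153 CPM and the summed erythroid genes between 9.74 and 21.1 CPM. Summed dendritic cell genes lay between 389 and 463 CPM there.

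**Figure D4:**
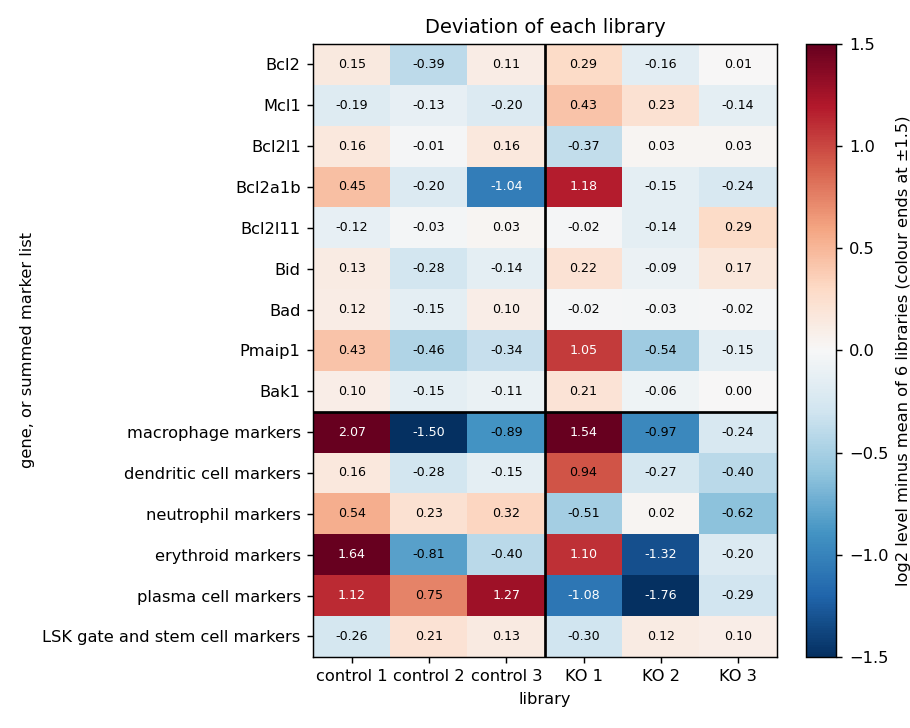
Log2 level of each member, above the black line, and of the summed marker lists, below it, minus the mean of the 6 libraries, for control libraries on the left and KO libraries on the right. KO 1 is high for Bcl2a1b (1.18) and Pmaip1 (1.05), and macrophage markers are high in control 1 (2.07) and KO 1 (1.54).

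The other genes of the pathway were described by 4 lists. Of their 73 genes, 70 had a row and 66 were tested, and in edgeR 0 passed in either direction, with 33 positive and 33 negative log2 fold changes and a median of 0.0037. An unadjusted p under 0.05 was found for 1 of the 66, beside 3.9% of all genes. With the block 1 of the 66 rose and 0 fell, a share near the 1.36% called among all genes, and DESeq2 and limma-voom called 0.

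The gene that rose with the block was Bcl2l14, another family member, listed with 11 further tested relatives. It had 19.3, 17.1 and 11.1 CPM in the control replicates and 34.6, 26.8 and 17.4 CPM in the KO replicates. The groups overlapped, since KO replicate 3 lay below control replicate 1, while each KO library was above the control library of its number by 0.82, 0.63 and 0.62 on the log2 scale. The log2 fold change was 0.72 ± 0.11 with the block (SE; adjusted p = 0.0363 in edgeR) and 0.72 ± 0.29 without it (SE; adjusted p = 0.9995). The antisense gene 4933406J09Rik covers 14.1% of its exon bases, so this count is uncertain where strand is not known. The other relatives had log2 fold changes of -0.28 to 0.31 and did not pass. Bbc3, which encodes PUMA, another BH3-only protein under p53, had the next smallest p (0.31 ± 0.19, SE), and the effector Bax had a log2 fold change of -0.044. The median of the 12 was 0.033.

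None of the 22 tested genes of the apoptosome, the caspases and their inhibitors passed with or without the block (0 and 2 had an unadjusted p under 0.05 in edgeR). Their median log2 fold change was 0.0060 and 11 were positive. Cycs, which encodes cytochrome c, and Apaf1, which it activates to recruit caspase-9, had the smallest p, with 0.35 ± 0.21 and 0.23 ± 0.17 (SE). Casp9 had -0.18 and Xiap 0.10.

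Death receptor genes (14 tested, 9 positive, median 0.049) also had 0 calls in edgeR with or without the block (0 and 2 with an unadjusted p under 0.05). Tnfrsf1a, a receptor for TNF, had 69.7, 69.6 and 64.1 CPM in the control replicates and 73.9, 82.8 and 77.04 CPM in the KO replicates. Its groups did not overlap, as in 3.43% of all genes with the KO group higher, and its log2 fold change was 0.20 ± 0.086 (SE; adjusted p = 0.9995 in edgeR). Traf2, an adaptor of that receptor, had non-overlapping groups too and a log2 fold change of 0.18 ± 0.092 (SE).

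Regulators of family members (18 tested, 6 positive, median -0.016) had 0 calls in edgeR and 0 with an unadjusted p under 0.05, with or without the block. Myc, which sensitises cells to apoptosis, had a log2 fold change of -0.18 ± 0.10 (SE), and the stress factor Atf4, an inducer of Pmaip1, 0.13 ± 0.078 (SE). The transcription factors Stat5a (-0.084), Stat5b (-0.070), Foxo3 (-0.14) and Trp53 (-0.013) had slightly negative values that did not pass.

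**Figure D5:**
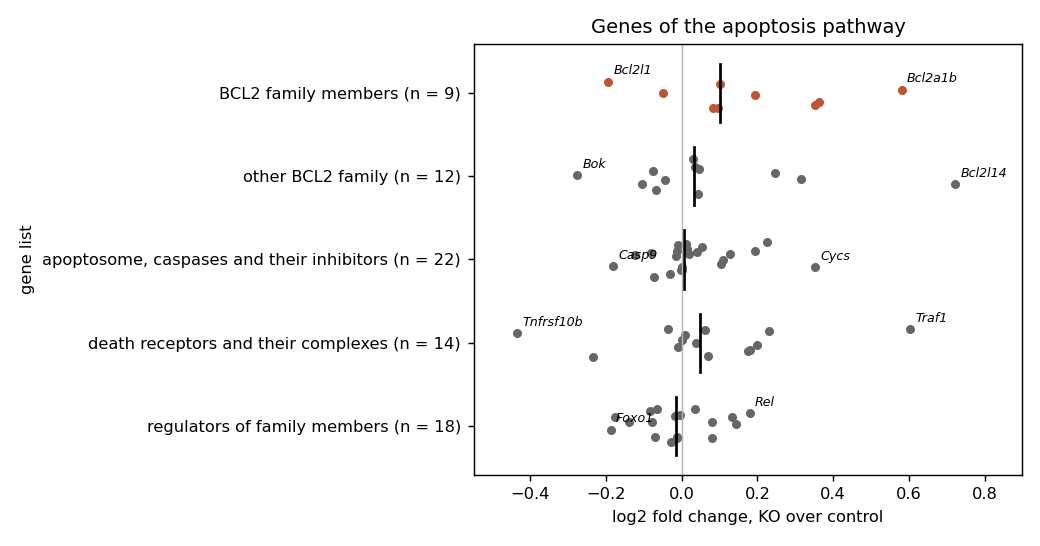
Log2 fold change, KO over control, of the 9 BCL2 family members (orange) and of the tested genes of 4 pathway lists (grey), with a black bar at each list's median and the extreme genes named; the vertical position within a row is arbitrary. The list medians lie between -0.016 and 0.10, and Bcl2l14 (0.72) has the highest value.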

How the data were processed

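Values per gene and library that the file headers name counts were deposited by the authors as whole numbers. FPKM values, each a count scaled by gene and by library, were deposited with them. The deposited table also gave log2 fold changes and adjusted p-values of a comparison by the authors, not used as a result. The submitters' processing notes name the mm10 build, DESeq2 1.10.1 and Novoalign 2.08.01. The counting program, its gene models and its strand setting are not given in the sources used here.

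All genes were tested with edgeR 4.0.16 in R 4.3.3: filterByExpr (minimum total 15, minimum count 10), TMM, and a quasi-likelihood F test of the group, two-sided, with Benjamini-Hochberg adjustment over 13217 genes and a threshold of 0.05. The fit was tested on simulated counts drawn independently for each library. These held no replicate pairs and no outlying libraries, so they cannot show how the fit handles either. SE came from the F statistic, and pair differences used log2 of CPM plus 0.5. DESeq2 1.42.0 and limma-voom (limma 3.58.1) were alternatives, beside those named in the closing section. A count of 0 allows up to 3 counts, or 0.326 to 0.460 CPM, and counting intervals cover counting error only.

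The same replicate numbers occur in control and KO titles, with no word on what they share. Across genes, departures from the group mean correlated by r = 0.58, 0.55 and 0.23 between libraries of equal number 1, 2 and 3, above the limit of 0.1 for treating numbers as pairs, so the pairing rests on the data. Between libraries of unequal number r lay between -0.53 and 0.13, the highest for control 3 with KO 2 and also above that limit. Within groups, libraries differed by more than counting noise (chi-square per degree of freedom at least 7.29).

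Coordinates and 3' UTRs came from GENCODE M21 (GRCm38, the assembly of mm10), and the microRNA and promoters from RefSeq on GRCm38.p6. The genes named are the members, pathway genes that passed with or without the block and the 2 of smallest p in each pathway list. Casp9, Xiap, Bax, Stat5a, Stat5b, Foxo3 and Trp53 were added after their values were seen. The members and lists were chosen with earlier results of these data known. The planned ratio of Bcl2a1d to Bcl2a1b and the pseudocount for normalized values were not run.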

Additional observations from a re-analysis of the deposited data

How the results depend on the processing

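The count of 0 members past the threshold held under all 15 alternatives: the replicate block, DESeq2, limma-voom, DESeq2 size factors, both other filters, library sizes without immunoglobulin genes, summed Bcl2a1 copies (which added only Bcl2a1c, at 0 to 4 counts, and not the near-identical copies, so it bears little on Bcl2a1b), leaving out each of the 6 libraries and leaving out both of number 1. Without control replicate 1, and without control replicate 3, 0 of all genes were called, so 0 members was fixed in those fits. Of 127 values of single members under the alternatives, 121 kept direction and call and 6 reversed, each when 1 library was left out. Leaving out 1 library gave log2 fold changes of -0.071 to 0.18 for Bcl2, -0.061 to 1.05 for Bcl2a1b, -0.037 to 0.18 for Bcl2l11, -0.13 to 0.0014 for Bad and -0.26 to 0.69 for Pmaip1. Mcl1 (0.23 to 0.51), Bid (0.11 to 0.32), Bak1 (0.022 to 0.19) and Bcl2l1 (-0.26 to -0.068) did not reverse. Adjusted p of Mcl1 lay between 0.220 and 1.00 over its alternatives. The count of pathway genes was 0 without and 1 with the replicate block, and Bcl2l14 was the only member or named pathway gene whose call the block changed. The 21 genes called in all became 180 with the replicate block, 97 with no filter on low counts and 131 with DESeq2, and 0 to 27 when 1 library was left out, with fewer samples in each fit; the cause of the other changes was not tested. The differences in the 3 ratios between members moved by less than the spread between replicates when 1 library was left out. The scaling alternatives moved the median of all genes by less than 0.1 on the log2 scale. Without the block the intervals of Bcl2a1b and Pmaip1 include a 2-fold change and those of the other 7 members do not; with the replicate block that of Bcl2a1b alone does.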

Other observations

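The promoters of the members, 250 bases before to 50 bases after each annotated start, were searched on both strands for TTCNNNGAA, the core bound by STAT factors such as STAT5, which FLT3-ITD activates. RefSeq gave 13 promoters for 9 of the 10 genes, and 0 of the 13 held it, against 8.3% of all 32851 promoters. No match says only that these letters are not in these windows.

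The spread of Bad in the KO group, 18.02 ± 0.078 CPM (SD, n = 3), was smaller than the counting error of a single library (1.52 to 1.66 CPM). In the control group the SD was 1.94 CPM. Over both groups the SD within groups was 0.11 on the log2 scale, larger than that of 14.5% of the genes of like level.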
